A study of Mus musculus with 2 samples.

Results

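The nuclei described here are those of mouse whole brain that were chosen by a rule for Pvalb-type fast-spiking interneurons. Barcodes were kept if 500 or more genes were detected and no more than 5% of their UMIs (unique molecular identifiers, 1 for each captured RNA molecule) came from mitochondrial genes. The rule then asked for at least 1 UMI of Gad1 and Gad2 together, for at least 3 detected markers among Pvalb, Btbd11, Kcnc2, Cntnap3, Eya4 and Kcnmb2, for at most 1 UMI each of Sst, Adarb2 and Slc17a7, and for no Vip UMI. It took 310 of 26705 kept nuclei, 181 of 15668 in WBRT-28d and 129 of 11037 in ShamRT-28d. WBRT-28d is the irradiated group, whose whole brain received 10 Gy split into 5 doses of 2 Gy, and its brains were taken 28 days later. ShamRT-28d is the mock-irradiated group, which the sample labels call untreated, taken at the same time. Each condition is 1 library of nuclei from flash-frozen whole brain, with 2 mice in the pool (strain C57BL/6 in the labels and C57BL/6J in the methods), bought as females of 4 to 6 weeks. No replicate check exists between the conditions, no test was made between them, and brain regions cannot be told apart.

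Pvalb interneurons are GABA neurons of the cortex, hippocampus, striatum and other regions that fire at high rates and inhibit the soma or the axon start of their targets. Their brief spikes rest on potassium channels of the Kv3 type, of which Kcnc1 and Kcnc2 code for subunits, and parvalbumin, the product of Pvalb, buffers calcium. In the forebrain they arise, with the Sst interneurons, in the medial ganglionic eminence (MGE), where Lhx6, Sox6 and Satb1 act in their specification, and many carry a perineuronal net of extracellular matrix.

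The WBRT-28d library held 15986 barcodes and 68423922 UMIs, and the ShamRT-28d library 11469 barcodes and 45511469 UMIs. Kept nuclei had a median of 2594 UMIs in WBRT-28d and of 2378 in ShamRT-28d. The chosen nuclei were deeper than most: their medians were 6409 and 7331 UMIs, and they held 1483927 UMIs in WBRT-28d and 1093937 in ShamRT-28d. The libraries shared 43 barcodes, and no chosen nucleus had the same barcode in both. Scrublet called 20.4% of the chosen nuclei in WBRT-28d and 6.98% in ShamRT-28d as doublets, beside 20% and 6.57% of all kept nuclei. Background was read from nuclei with at least 4 of 6 oligodendrocyte genes, doublets included. These were 2726 in WBRT-28d with a median of 2935 UMIs and 2222 in ShamRT-28d with a median of 2651.5. Of these, 11.8% in WBRT-28d and 4.10% in ShamRT-28d held a UMI of Gad1, the gene of a GABA-synthesizing enzyme. Adarb2 had 13269 UMIs in 858 of them in WBRT-28d and 1967 UMIs in 355 in ShamRT-28d. This background was thus higher in the irradiated library, and free RNA and doublets with a neuron were not told apart in it.

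The rule's own values describe the nuclei and are no findings. Kcnc2 was detected in 96.1% of the chosen nuclei of WBRT-28d and in 93.0% of those of ShamRT-28d, against 22.6% and 9.90% of oligodendrocyte nuclei. The large-conductance potassium channel subunit Kcnmb2 was found in 81.2% of WBRT-28d nuclei and in 79.8% of ShamRT-28d nuclei. Btbd11, whose product sits at glutamatergic synapses onto interneurons, was found in 80.1% and 89.1%, and the adhesion gene Cntnap3 in 65.7% and 62.8%. Eya4, which did not come with the label, was found in 39.2% of WBRT-28d nuclei and in 54.3% of ShamRT-28d nuclei. Thus 3 of the 4 markers that came with the label were present in most nuclei of both libraries.

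Pvalb itself was not. It was detected in 42 of 181 nuclei of WBRT-28d (23.2%, exact 95% interval 17.3 to 30.04) and in 52 of 129 nuclei of ShamRT-28d (40.3%, 31.8 to 49.3). Its level, in UMIs per 1000000 UMIs of the summed nuclei (CPM), was 41.8 in WBRT-28d from 62 UMIs and 83.2 in ShamRT-28d from 91 UMIs. The background in oligodendrocyte nuclei was low, at 1.10% and 0.945% of nuclei. No nucleus held more than 4 Pvalb UMIs in WBRT-28d or more than 6 in ShamRT-28d. Most nuclei therefore entered without a Pvalb UMI, and the group is called Pvalb-rule nuclei below. Intervals here and below cover counting error only, and not the spread between nuclei, mice or libraries.

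Genes that the rule did not use give a similar picture. Sox6 was detected in 72.9% of Pvalb-rule nuclei of WBRT-28d and in 66.7% of ShamRT-28d, Satb1 in 58.0% and 55.8%, and Lhx6 in 30.4% and 25.6%. A UMI of at least 1 of these MGE transcription factors was present in 158 of 181 nuclei and in 104 of 129. In oligodendrocyte nuclei Lhx6 was found in 2.05% in WBRT-28d and 0.450% in ShamRT-28d, while Sox6 was found in 22.5% and 7.79% and Satb1 in 20.3% and 11.5%. In Adarb2-type nuclei, defined below, Sox6 was found in 32.6% and 27.3% and Satb1 in 19.1% and 17.4%. Both comparison groups were shallower, and no background was taken for the share with at least 1 of the factors. Erbb4, a neuregulin receptor gene of interneurons, was present in 96.7% and 93.0% of Pvalb-rule nuclei. Its detection does not set them apart. A UMI of it was held by 92.0% and 88.6% of oligodendrocyte nuclei and by 87.3% and 83.1% of Adarb2-type nuclei. Its source in oligodendrocyte nuclei was not tested.

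**Figure D1:**
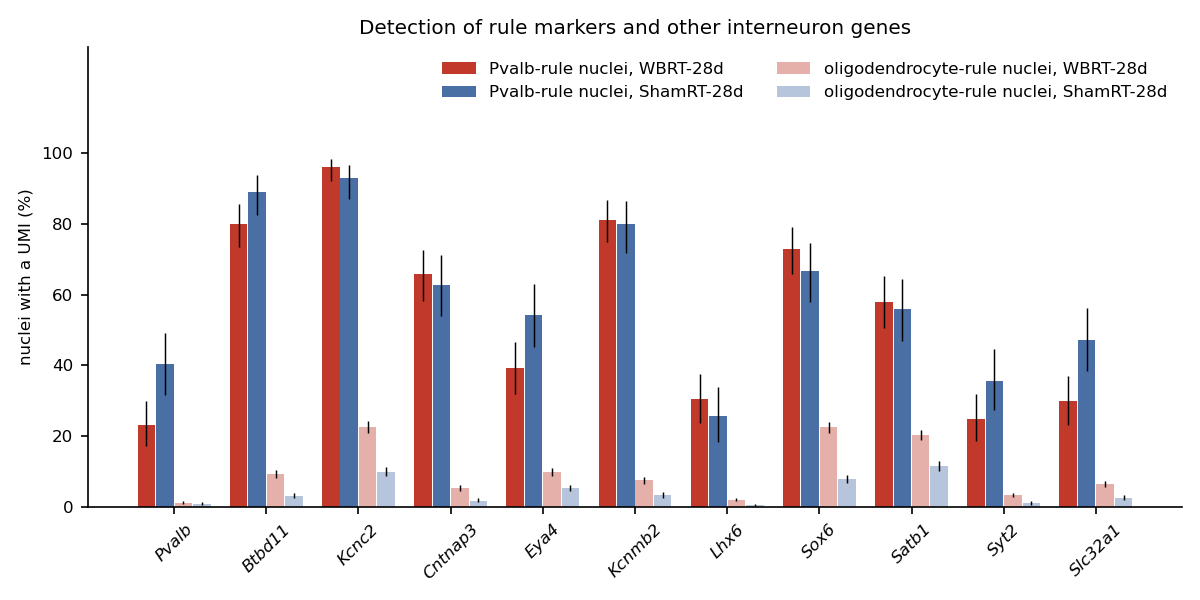
Share of nuclei with at least 1 UMI of each gene (y axis, %) in Pvalb-rule nuclei and, in pale bars, oligodendrocyte-rule nuclei of WBRT-28d (red) and ShamRT-28d (blue), with exact 95% binomial intervals that cover counting error. Kcnc2 is present in 96.1% of Pvalb-rule nuclei of WBRT-28d and 93.0% of ShamRT-28d, and Pvalb in 23.2% of WBRT-28d and 40.3% of ShamRT-28d.

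At the edge of the rule the nuclei carried few signs of Pvalb. Exactly 3 markers were detected in 87 nuclei of WBRT-28d, 6 of them with a Pvalb UMI, and in 44 nuclei of ShamRT-28d, 7 of them with one. Just outside, 153 nuclei of WBRT-28d and 85 of ShamRT-28d met the rest of the rule with 2 markers, and 10 and 6 of these held a Pvalb UMI. All 6 markers were detected in 16 and 19 nuclei, which were the deepest, at a median of 11048 UMIs in WBRT-28d and 10720 in ShamRT-28d. A further 152 nuclei of WBRT-28d and 43 of ShamRT-28d had 3 or more markers and failed only by Adarb2, and 50 and 57 failed only by Sst. Outside the rule, 145 nuclei of WBRT-28d and 129 of ShamRT-28d held a Pvalb UMI, at 2.39 and 3.35 CPM over all other kept nuclei.

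The share of kept nuclei that met the rule was 1.16% in WBRT-28d (181 nuclei, 0.994 to 1.34) and 1.17% in ShamRT-28d (129 nuclei, 0.977 to 1.39). These intervals overlap. Since more markers are seen in deeper nuclei, each nucleus was also thinned to 2000 UMIs, which left out 5363 shallower nuclei of WBRT-28d and 4540 of ShamRT-28d. The share was then 0.835% of 10305 nuclei in WBRT-28d and 0.893% of 6497 in ShamRT-28d. Of nuclei with a Gad1 or Gad2 UMI, 4.68% met the rule in WBRT-28d (3865 such nuclei) and 7.36% in ShamRT-28d (1754 such nuclei). The Gad nuclei include oligodendrocyte nuclei with a Gad1 UMI, as given above, a share that was higher in WBRT-28d. Their part in this difference was not tested.

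Within the Pvalb-rule nuclei, 5 clusters were found, and they are described by their leading genes without a test, since the same counts formed them. Of the 12 rule genes, 1 was among the 1500 variable genes used. Cluster 1 held 158 of the 310 nuclei and was led by Mybpc1, a myosin-binding protein (89.6 CPM, 6.46-fold over the other nuclei), Pvalb (108 CPM, 5.18-fold), Mypn, the synaptic vesicle protein gene Syt2 (167 CPM, 4.36-fold) and the phosphodiesterase gene Pde5a (192 CPM, 3.83-fold). Kcnc2 stood at 4026 CPM in it, Btbd11 at 843 CPM and Sox6 at 991 CPM. It is called Pvalb-like because Pvalb was among its leading genes. This is a name and no finding, since the rule used all 4 markers of the label. In the other Pvalb-rule nuclei Pvalb was detected in 14.9% in WBRT-28d and in 17.6% in ShamRT-28d.

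The other clusters lay further from the label and stay unnamed. Cluster 2 (57 nuclei) was led by Rmst, Stac and Gli3, held Kcnc2 at 729 CPM, and carried Meis2, a transcription factor of striatal and other GABA neurons, at 476 CPM and the axon guidance gene Ntng1 at 545 CPM. The summed astrocyte markers reached 1759 CPM there, against 211 CPM in cluster 1. Cluster 3 (41 nuclei) was led by the immune gene Ikzf1 and the oligodendrocyte genes Prr5l, Aspa and Bcas1, and oligodendrocyte markers summed to 5223 CPM, against 325 CPM in cluster 1. Scrublet called 26 of its 41 nuclei as doublets, against 2 of 158 in cluster 1. Cluster 4 (32 nuclei) was led by Trpc6, Synpr and Grin3a, genes that are high in Sst-type nuclei below, and Syt2 had no UMI in it. Cluster 5 (22 nuclei) was led by the receptor genes Kit and Egfr, with Erbb4 at 15620 CPM and no UMI of Eya4 or Syt2.

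Cluster 1 took 80 of 181 nuclei in WBRT-28d (44.2%, 36.8 to 51.8) and 78 of 129 in ShamRT-28d (60.5%, 51.5 to 69.0), and 36.5% and 55.6% of the members' UMIs. Genes that define cluster 1, such as Mybpc1, Plch2 and Pde5a, also differed in level between the libraries, so no difference in makeup is read from these sizes. Cluster 3 held 16.02% of nuclei in WBRT-28d and 9.30% in ShamRT-28d, cluster 4 held 13.3% and 6.20%, cluster 2 held 18.8% and 17.8%, and cluster 5 held 7.73% and 6.20%. Since the clusters are unlike, the ranked genes are given for all Pvalb-rule nuclei and again for cluster 1 alone, a choice made after the clusters had been seen. For the gene lists, values in cluster 1 are given for some lists only. Cluster 1 had a median of 5157.5 UMIs per nucleus in WBRT-28d and 7105 in ShamRT-28d.

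**Figure D2:**
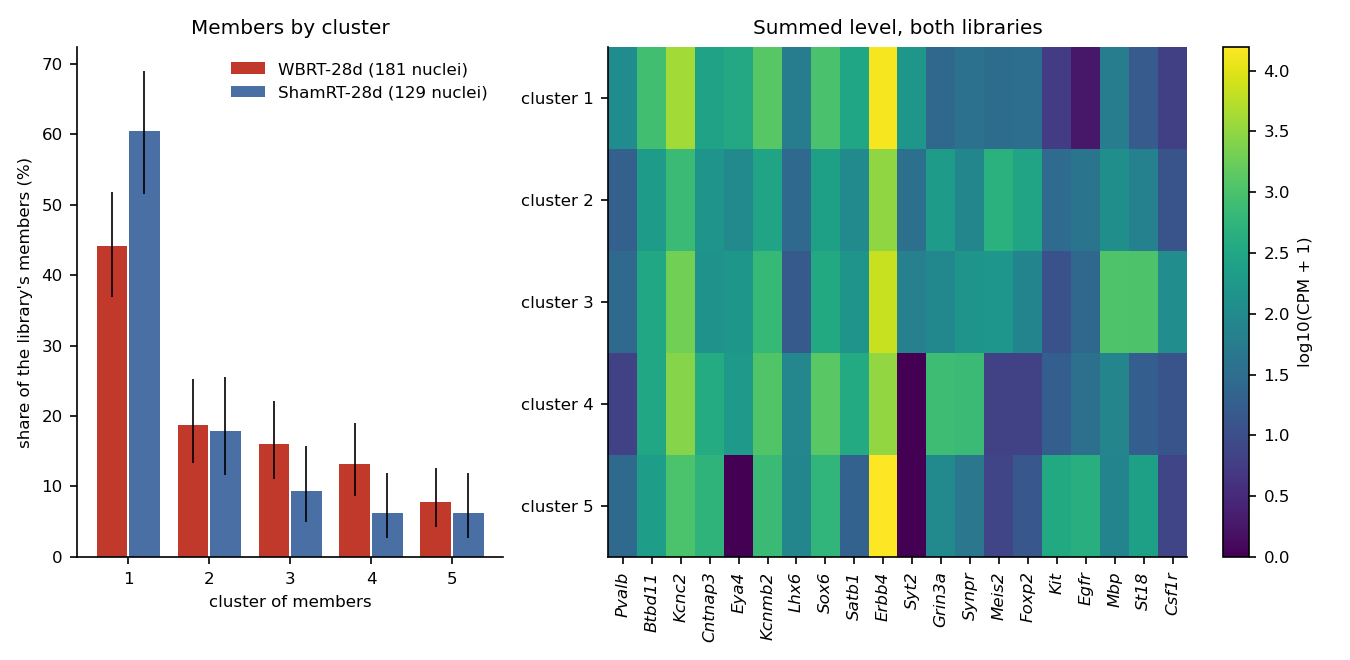
Left, share of each library's Pvalb-rule nuclei in clusters 1 to 5 (y axis, %), WBRT-28d in red and ShamRT-28d in blue, with exact 95% binomial intervals, and right, the summed level of marker genes in each cluster over both libraries as log10(CPM + 1). Pvalb (108 CPM) and Btbd11 (843 CPM) are highest in cluster 1, Meis2 and Foxp2 in cluster 2, Mbp in cluster 3, Grin3a and Synpr in cluster 4, and Kit and Egfr in cluster 5.

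The level of Pvalb by cluster restates how cluster 1 was picked and is given as a description. In cluster 1 Pvalb was detected in 27 of 80 nuclei of WBRT-28d (33.8%, 77.5 CPM) and in 43 of 78 nuclei of ShamRT-28d (55.1%, 134.9 CPM). In the other Pvalb-rule nuclei it was detected in 14.9% at 21.2 CPM in WBRT-28d and in 17.6% at 18.5 CPM in ShamRT-28d. Pvalb lies at chr15:78191114-78206400 on the minus strand (GRCm38, GENCODE vM21). Over all kept nuclei of the libraries it stood at 3.25 CPM in WBRT-28d and 5.29 CPM in ShamRT-28d, and the Pvalb-rule nuclei held 28.2% and 38.2% of its UMIs. Among the other rule markers in cluster 1, Kcnc2 stood at 4460 CPM in WBRT-28d and 3638 CPM in ShamRT-28d, and the ratio of Btbd11 was 1.02 (0.900 to 1.16). Eya4 was detected there in 47.5% of nuclei in WBRT-28d and in 64.1% in ShamRT-28d.

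Between WBRT-28d and ShamRT-28d, ratios of CPM were taken over the 4497 genes with at least 100 UMIs in the Pvalb-rule nuclei of both libraries together. Of these, 258 genes (5.74%) were at least 1.5-fold higher in WBRT-28d and 200 genes (4.45%) at least 1.5-fold lower, and the median log2 ratio was 0.03. In cluster 1 alone, 2069 genes had that many UMIs, of which 100 (4.83%) were higher and 83 (4.01%) lower. These counts describe 2 libraries, and no p-value belongs to them. The genes below were ranked by the bound of the counting interval nearest to 1, 10 in each direction.

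Slc32a1, the gene of the vesicular GABA transporter, had 69 UMIs in WBRT-28d and 122 in ShamRT-28d, which is 46.5 and 111.5 CPM, a ratio of 0.42 (0.31 to 0.56). It was found in 29.8% of nuclei in WBRT-28d and in 47.3% in ShamRT-28d, beside 6.46% and 2.57% of oligodendrocyte nuclei. In cluster 1 it stood at 64.6 CPM in WBRT-28d and at 138.2 CPM in ShamRT-28d, a ratio of 0.47 (0.31 to 0.70), while over all other kept nuclei the ratio was 0.996. It was not lower in Pvalb-rule nuclei alone: the ratio was 0.54 (0.48 to 0.60) in the other nuclei with a Gad1 or Gad2 UMI. Sst-type nuclei stood at 68.1 CPM in WBRT-28d and 200.8 CPM in ShamRT-28d, but these groups were unlike between the libraries, as given below. Slc32a1 lies at chr2:158610767-158615748. Gad1 and Gad2, which the rule used, were detected in 77.3% and 63.0% of nuclei in WBRT-28d and in 80.6% and 65.1% in ShamRT-28d.

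Scn9a, which codes for the sodium channel Nav1.7, had 166 UMIs in WBRT-28d and 287 in ShamRT-28d (112 against 262 CPM), a ratio of 0.43 (0.35 to 0.52). The ratio was 0.38 (0.29 to 0.50) in cluster 1, 0.65 (0.59 to 0.72) in the other Gad nuclei and 0.79 in all other kept nuclei. Its neighbour on chromosome 2, the sodium channel gene Scn1a, which is prominent in fast-spiking interneurons, had a ratio of 0.75 (0.67 to 0.83) and of 0.90 (0.78 to 1.04) in cluster 1. Pde5a, a cGMP phosphodiesterase, had 115 and 177 UMIs, a ratio of 0.48 (0.38 to 0.61), with 0.46 (0.34 to 0.62) in cluster 1, 0.69 (0.58 to 0.81) in the other Gad nuclei and 1.18 in all other kept nuclei. Both genes thus kept their direction in cluster 1 with intervals under 1.

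Ube3a, the imprinted ubiquitin ligase gene of Angelman syndrome, was the most abundant gene ranked as lower. It had 1041 UMIs in WBRT-28d and 1496 in ShamRT-28d (702 against 1368 CPM), a ratio of 0.51 (0.47 to 0.56). It was also low in WBRT-28d outside the Pvalb-rule nuclei, at a ratio of 0.66, and in cluster 1 the ratio was 0.56 (0.50 to 0.62). Nrg3os, annotated opposite the neuregulin gene Nrg3, behaved alike, at 0.51 (0.45 to 0.59), with 0.56 in cluster 1 and 0.54 in all other kept nuclei. Nrg3 itself had a ratio of 0.86 (0.84 to 0.89), and whether the counting used strand is not given in the sources used here. Tmem108 (0.56), the phospholipase gene Plch2 (0.38) and Mybpc1 (0.40) were lower with ratios of 0.63, 0.44 and 0.55 in cluster 1.

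The remaining genes ranked as lower did not keep their direction in cluster 1. Ntng1 had 193 UMIs in WBRT-28d and 289 in ShamRT-28d, a ratio of 0.49 (0.41 to 0.59), but 83 and 28 UMIs in cluster 1, a ratio of 3.33 (2.15 to 5.31). A single nucleus held 29.4% of its UMIs in ShamRT-28d. The follistatin-like gene Fstl5 had 213 and 349 UMIs, a ratio of 0.45 (0.38 to 0.54), with 28.6% of the ShamRT-28d UMIs in 1 nucleus and a ratio of 1.35 (0.84 to 2.20) in cluster 1. In ShamRT-28d a large part of the level of each gene thus came from 1 nucleus. In WBRT-28d the top nucleus held 9.33% of the UMIs of Ntng1 and 5.16% of those of Fstl5.

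Among the genes that were higher in WBRT-28d, Erdr1 had the largest bound. It had 579 UMIs in WBRT-28d and 151 in ShamRT-28d (390.2 against 138 CPM), a ratio of 2.83 (2.36 to 3.40). The ratio was 2.63 in cluster 1 and 3.20 in all other kept nuclei. GENCODE vM21 lists its ID as Gm47283 on chromosome Y, in a region where copies are near identical, and its counts are uncertain for that reason. Pde10a, a phosphodiesterase gene that is high in striatal spiny neurons, had 2057 and 910 UMIs (1386 and 832 CPM), a ratio of 1.67 (1.54 to 1.80), with 1.61 (1.44 to 1.80) in cluster 1 and 1.28 in all other kept nuclei.

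Dgkg, a diacylglycerol kinase gene, had 324 UMIs in WBRT-28d and 126 in ShamRT-28d, a ratio of 1.90 (1.54 to 2.35), and 107 and 28 UMIs in cluster 1, a ratio of 4.29 (2.81 to 6.76). Its ratio was 0.68 (0.65 to 0.71) in the other Gad nuclei and 0.995 in all other kept nuclei. The cadherin gene Cdh4 had 234 and 59 UMIs (2.92, 2.19 to 3.96), of which 36 and 5 were in cluster 1 (8.08, 3.16 to 26.4), beside 2.0 in all other kept nuclei. The collagen gene Col25a1 had 297 and 82 UMIs (2.67, 2.08 to 3.45), with 3.06 in cluster 1, 0.66 (0.63 to 0.70) in the other Gad nuclei and 0.87 in all other kept nuclei. Within cluster 1, 1 nucleus held 23.9% of its UMIs in WBRT-28d and 1 held 30.8% in ShamRT-28d. Moxd1 (2.50) and the teneurin gene Tenm3 (1.67) were higher with ratios of 2.81 and 1.54 in cluster 1.

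The channel genes Trpc5 and Trpc6 were higher over all Pvalb-rule nuclei, at 2.40 (1.77 to 3.29) and 2.47 (1.58 to 3.98), but hardly present in cluster 1. Trpc5 had 5 UMIs in WBRT-28d and 1 in ShamRT-28d there, and Trpc6 had 5 and 4. Trpc6 leads cluster 4, of which WBRT-28d held 24 nuclei and ShamRT-28d 8, and the part of this in its ratio was not tested. Pcgf3, a Polycomb gene, had a ratio of 2.53 (1.67 to 3.94) and of 1.54 (0.82 to 2.94) in cluster 1.

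**Figure D3:**
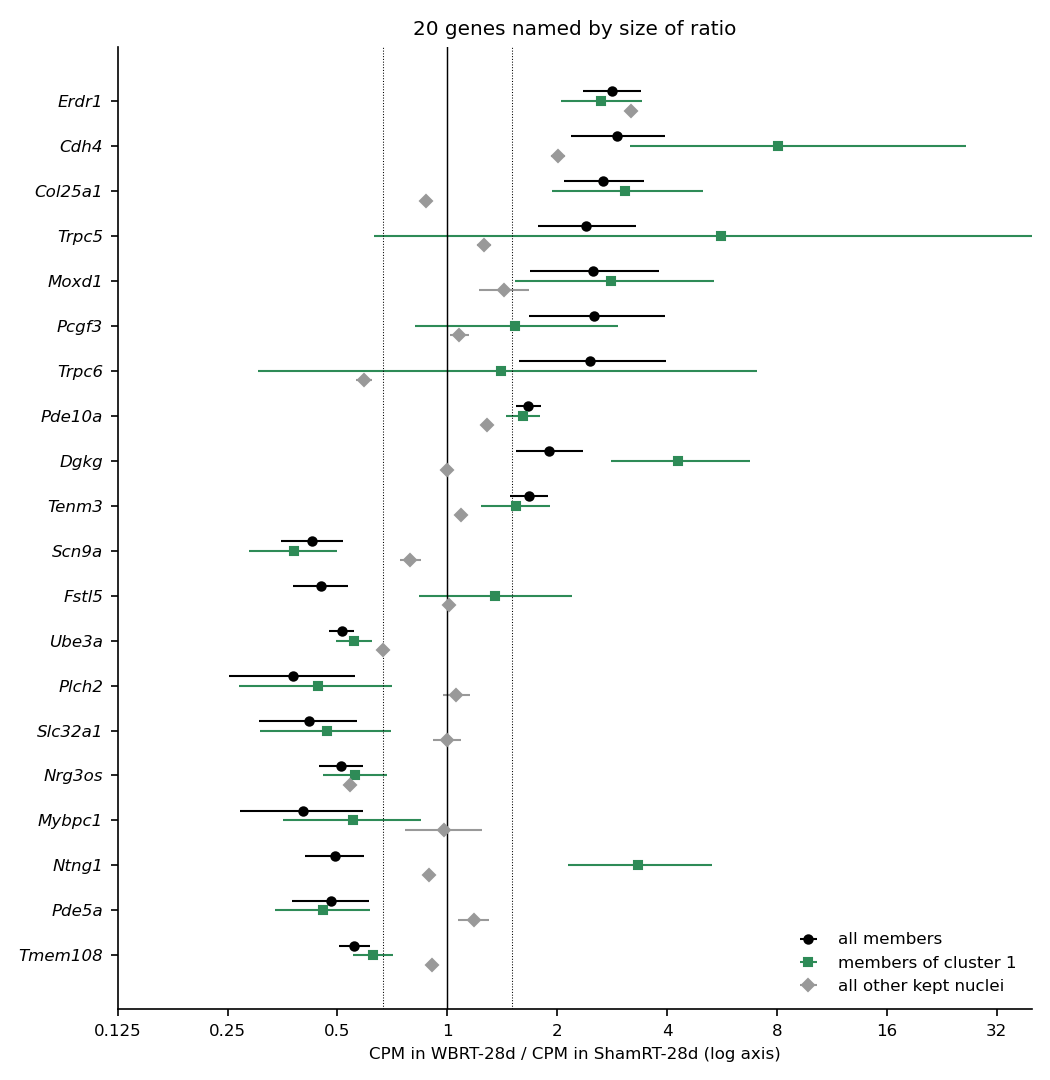
Ratio of CPM in WBRT-28d to CPM in ShamRT-28d (log axis) for 20 genes in all Pvalb-rule nuclei (black), cluster 1 (green) and all other kept nuclei (grey), with exact 95% intervals for counting error and dotted lines at 1.5-fold. Scn9a, Slc32a1 and Pde5a lie left of 1 in the black and green sets, with ratios of 0.65, 0.54 and 0.69 in the other Gad nuclei (not drawn), Ntng1 and Fstl5 change sides in cluster 1, and the interval of Trpc5 in cluster 1 runs past the axis.

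The same ranking within cluster 1 alone brought in further genes. Atp1b1, a subunit gene of the sodium pump, had 221 UMIs in WBRT-28d and 431 in ShamRT-28d there, a ratio of 0.58 (0.49 to 0.68). The protocadherin genes Pcdh11x (0.39, 0.27 to 0.56) and Pcdh10 (0.43, 0.29 to 0.63), the mitochondrial assembly gene Tmem126a (0.42, 0.28 to 0.61) and the nucleosome-binding gene Hmgn3 (0.47, 0.33 to 0.67) were lower as well. In all other kept nuclei the ratios were 0.76 for Atp1b1, 0.70 for Tmem126a, 0.86 for Hmgn3, 0.90 for Pcdh10 and 1.29 for Pcdh11x. On the other side, the adhesion gene Kirrel3 had 702 UMIs in WBRT-28d and 365 in ShamRT-28d, a ratio of 2.16 (1.90 to 2.46), although 1 nucleus held 18.9% of the ShamRT-28d UMIs. Slc44a5 (2.89), Man2a1 (2.18), the deubiquitinase gene Usp15 (2.03), Zfp804b (1.71) and Cntnap5c (1.63) were higher too. For these 6 genes the ratios in all other kept nuclei were 1.37 (Kirrel3), 1.31 (Slc44a5), 0.94 (Man2a1), 1.07 (Usp15), 0.97 (Zfp804b) and 1.56 (Cntnap5c).

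For the gene lists, members with at least 20 UMIs were counted. At that minimum 11.3% of 10273 genes were past 1.5-fold higher in WBRT-28d and 10.7% lower in all Pvalb-rule nuclei, with a median log2 ratio of 0.01. In cluster 1, 9.7% of 7131 genes were higher and 14.6% lower, with a median of -0.03. The lists were read against these shares.

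Among GABA-A and GABA-B receptor genes, 0 of 14 were past 1.5-fold higher, 2 were lower, 11 of the 14 had a ratio under 1, and the median log2 ratio was -0.32. Gabrb2, the beta2 subunit gene, had 657 UMIs in WBRT-28d and 705 in ShamRT-28d (443 against 644.5 CPM), a ratio of 0.69 (0.62 to 0.77), not past 1.5-fold. Gabrg3, the gene of the gamma3 subunit and the most abundant of those named, had 2928 and 2393 UMIs, a ratio of 0.90 (0.85 to 0.95). Gabrb1, the beta1 subunit gene, lay on the other side at 1.25 (1.13 to 1.39).

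In cluster 1 the receptor list split, with 2 of 13 genes higher and 3 lower. Gabrb2 (291 against 508 UMIs, 0.64, 0.55 to 0.74) was lower, while Gabrb1 (1.62, 1.33 to 1.98) and Gabra2 (29 against 7 UMIs, 4.65, 1.99 to 12.6) were higher in WBRT-28d, and the median was -0.30. In all other kept nuclei the ratio of Gabrb2 was 0.91.

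Potassium channel genes lay close to the background. Of 33, 2 were higher and 3 lower in WBRT-28d, with a median log2 ratio of -0.03. Kcnc1, the Kv3.1 gene, had 302 UMIs in WBRT-28d and 314 in ShamRT-28d (203.5 against 287 CPM), a ratio of 0.71 (0.60 to 0.83), and 0.74 (0.60 to 0.90) in cluster 1. Kcnip2, which codes for a partner of A-type channels, was lower at 0.57 (0.45 to 0.72), Kcna1 at 0.66 (0.51 to 0.84), and Kcnd3 was higher at 1.91 (1.52 to 2.42). In cluster 1 these ratios were 0.61 for Kcnip2, 0.71 for Kcna1 and 1.64 (0.95 to 2.88) for Kcnd3.

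Of 34 sodium, HCN and calcium channel genes, 2 were higher and 3 lower, with a median of -0.07. Scn9a, given above, and the beta subunit gene Scn3b (0.61) were among the lower. The auxiliary calcium channel genes parted: Cacna2d2 was lower at 0.61 (0.51 to 0.73), with 0.63 in cluster 1, while Cacna2d1 (1.94) and Cacna2d3 (1.703) were higher. Cacna2d3 had 59 UMIs in WBRT-28d and 16 in ShamRT-28d in cluster 1, a ratio of 4.14 (2.35 to 7.71), and it is among the genes that are higher in Sst-type nuclei.

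Mitochondria and energy genes had none past 1.5-fold higher and 5 of 34 lower, with a median of -0.15, and in cluster 1 2 of 32 higher and 5 lower, with a median of -0.01. Atp1b1 had 469 UMIs in WBRT-28d and 614 in ShamRT-28d, a ratio of 0.56 (0.50 to 0.64). It was also lower in the other Gad nuclei, at 0.66 (0.63 to 0.69), and in all other kept nuclei, at 0.76. Cycs (0.56), Uqcrc1 (0.60) and Cox6a2 (9 and 14 UMIs) were also lower. Ppargc1a, the mitochondrial coactivator that acts in Pvalb interneurons, had 299 and 215 UMIs, a ratio of 1.02 (0.86 to 1.23).

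The perineuronal net list had 1 of 13 genes higher and 2 lower, with a median of -0.24. Hapln1 had 14 UMIs in WBRT-28d and 19 in ShamRT-28d, while Hapln4 had 14 and 18, so both link protein genes rest on few counts. The gene that was higher, Ptprz1 (1.60, 1.27 to 2.04), is also a marker of oligodendrocyte precursors and was counted in that list too. Tnr, which codes for a net glycoprotein, had 861 and 607 UMIs, a ratio of 1.05 (0.94 to 1.16).

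Of 14 lineage genes of the MGE, 0 were higher and 2 lower, with a median of 0.0049, and the neurexophilin gene Nxph1 stood at 2109 CPM in WBRT-28d and 2099 CPM in ShamRT-28d. Lhx6 had 79 UMIs in WBRT-28d and 40 in ShamRT-28d, a ratio of 1.46 (0.98 to 2.19). In cluster 1, 1 of 12 lineage genes was higher and 1 lower, with a median of 0.01. Among 29 genes of ErbB4, neuregulins and synapse organisers, 3 were higher and 5 lower, with a median of -0.06. Erbb4 itself stood at 9153 CPM in WBRT-28d and 9812 CPM in ShamRT-28d, a ratio of 0.93 (0.91 to 0.96), and at 1.12 (1.09 to 1.16) in cluster 1. Its ligand gene Nrg1 was higher at 1.503 (1.40 to 1.61) over all Pvalb-rule nuclei and had a ratio of 1.12 (1.002 to 1.25) in cluster 1.

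GABA synthesis, transport and release genes counted 6 of 27 higher and 2 lower, with a median of 0.06, and glutamate receptors 5 of 23 higher and 0 lower, with a median of 0.13. Unc13c (2.80, 2.06 to 3.86) and Grin3a (1.82, 1.44 to 2.32), 2 of the genes that were higher, are leading genes of cluster 4. In cluster 1 they had 6 UMIs in WBRT-28d and 1 in ShamRT-28d for Unc13c, and 18 and 11 (33.2 and 18.1 CPM) for Grin3a. Of 21 glutamate receptor genes in cluster 1, 4 were higher, Grin3a among them, and 0 lower, with a median of 0.09. Of 22 GABA synthesis, transport and release genes there, 3 were higher and 2 lower, with a median of 0.07. The metabotropic receptor gene Grm7 had a ratio of 1.17 (1.08 to 1.27) over all Pvalb-rule nuclei and of 1.75 (1.49 to 2.06) in cluster 1.

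The study asked which brain cells enter senescence after irradiation. In the Pvalb-rule nuclei its senescence genes were near or at the limit of detection. Cdkn1a, which codes for p21, had 3 UMIs in 2 nuclei of WBRT-28d and 1 UMI in 1 nucleus of ShamRT-28d, and none of these lay in cluster 1. That is 1.10% and 0.775% of nuclei, beside 1.43% and 0.743% of all other kept nuclei. Cdkn2a, which codes for p16, Tnf and Cxcl1 had 0 UMIs in both libraries, which allows a level of up to 2.02 CPM in WBRT-28d and 2.74 CPM in ShamRT-28d, taking 3 counts as the limit. A difference was not detectable at this depth.

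Of 17 p53 targets, 2 were higher and 1 lower, with a median log2 ratio of 0.06, and in cluster 1 0 of 11 were higher and 1 lower. Sesn1 had 220 UMIs in WBRT-28d and 148 in ShamRT-28d, a ratio of 1.10 (0.89 to 1.36), and Zmat3 had 72 and 51, a ratio of 1.04 (0.72 to 1.52). Ccng1, a direct p53 target, was lower on 14 and 25 UMIs, at 0.41 (0.20 to 0.83). Trp53, the p53 gene, had 27 and 18 UMIs, a ratio of 1.11 (0.59 to 2.13). Of 6 genes of cell cycle arrest and senescence with enough UMIs, 1 (Lmnb1, 1.90) was higher and 0 were lower, with a median of 0.20. In cluster 1, 1 of 4 (Hmgb1) was higher and 0 were lower, with a median of -0.08. Of 16 genes of DNA break repair 0 were higher and 2 lower, Xrcc6 at 0.66 (0.49 to 0.88) and Brca2 on 9 and 11 UMIs.

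Of 17 measured genes in a list of the senescence-associated secretory phenotype (SASP) and its regulators, which holds genes the study names and further secreted factors, 6 were higher and 0 lower, with a median of 0.16. They were Nrg1, Map2k6 (1.53, 1.03 to 2.30), Brf1, Igfbp7, Prodh and Csf1, of which the last 4 had 16 to 48 UMIs in WBRT-28d and intervals that contain 1. In cluster 1, 3 of 8 were higher. Col19a1, a collagen gene expressed in interneurons, had 551 UMIs in WBRT-28d and 460 in ShamRT-28d (371 against 420.5 CPM), a ratio of 0.88 (0.78 to 1.002). Bcl2, which blocks apoptosis and is a target of senolytic drugs, was higher with 171 and 66 UMIs, at 1.91 (1.43 to 2.58), with 1.38 in all other kept nuclei and 1.44 (0.95 to 2.21) in cluster 1. Bcl2l1 (1.35, 0.97 to 1.89), Mcl1 (1.23, 0.57 to 2.76) and Bcl2l2 (1.005, 0.43 to 2.42) had intervals that contain 1.

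Immediate early genes, which follow neuronal activity and handling of tissue, had 4 of 8 past 1.5-fold higher and 0 lower, while the other 4 had ratios under 1. With at least 4 markers, or with cluster 3 left out, 1 was higher and 0 lower. Only Homer1 had many UMIs, 302 in WBRT-28d and 115 in ShamRT-28d, a ratio of 1.94 (1.56 to 2.42), and it held in cluster 1 with 96 and 50 UMIs (2.16, 1.52 to 3.10) while the ratio in all other kept nuclei was 0.81. Nr4a1, Nr4a2 and Junb had at most 18 UMIs in either library. Of 8 heat shock genes 1 was higher and 3 lower: Hspa5, an endoplasmic reticulum chaperone gene, had 60 and 87 UMIs, a ratio of 0.51 (0.36 to 0.71), and Hsph1 was higher at 1.53 (1.04 to 2.29). Of 18 clock genes 3 were higher and 1 lower, with Npas2 at 1.75 (1.29 to 2.39). Tsc22d3 was the 1 of 8 glucocorticoid response genes that was higher, at 2.27 (1.19 to 4.62), while in cluster 1 it was Fkbp5, 1 of 6.

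Markers of other cell types were at higher levels in WBRT-28d. Astrocyte markers summed to 863.9 CPM in WBRT-28d and 364.7 CPM in ShamRT-28d, 6 of 7 were past 1.5-fold higher and the median log2 ratio was 1.65. Gpc5, an astrocyte proteoglycan gene, had 572 and 145 UMIs, and in cluster 1 93 and 6 UMIs, a ratio of 17.4 (7.70 to 48.6). Astrocyte markers in cluster 1 summed to 328.6 CPM in WBRT-28d and 106.9 CPM in ShamRT-28d. Microglia markers summed to 340.3 and 178.3 CPM (5 of 7 higher), and oligodendrocyte markers to 1491 and 1121 CPM (4 of 9 higher). In cluster 1, microglia markers summed to 103.4 and 108.6 CPM, and oligodendrocyte markers to 367.4 and 287.8 CPM. Vascular markers summed to 182 CPM in WBRT-28d and 104 CPM in ShamRT-28d (4 of 6 higher), and 2 of 5 markers of oligodendrocyte precursors were higher.

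Many genes of other GABA neurons were higher too. Of 8 Sst interneuron genes, 5 were higher and 1 lower, with a median of 1.04, led by the synapse gene Elfn1 (63 and 9 UMIs) and Calb1 (74 and 16 UMIs, 3.41, 1.97 to 6.27). In cluster 1, 3 of 5 were higher, with a median of 0.88. Of 9 genes of interneurons from the caudal and lateral eminences, 6 were higher and 2 lower, with a median of 0.86, whereas in cluster 1 the median over 4 genes was -0.43. Of the other lists, 3 of 6 midbrain, hindbrain and diencephalic genes were higher and 3 lower, 2 of 7 cerebellar genes higher and 1 lower, 2 of 3 chandelier cell genes higher, 2 of 9 neuropeptide genes higher and 3 lower, 1 of 6 striatal spiny neuron genes higher and 2 lower, and 0 of 6 excitatory neuron genes higher and 1 lower. Adarb2, which the rule held to at most 1 UMI, was detected in 21.0% of Pvalb-rule nuclei of WBRT-28d and in 7.75% of those of ShamRT-28d. The part of all these markers of other cells in the ratios above was not tested.

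**Figure D4:**
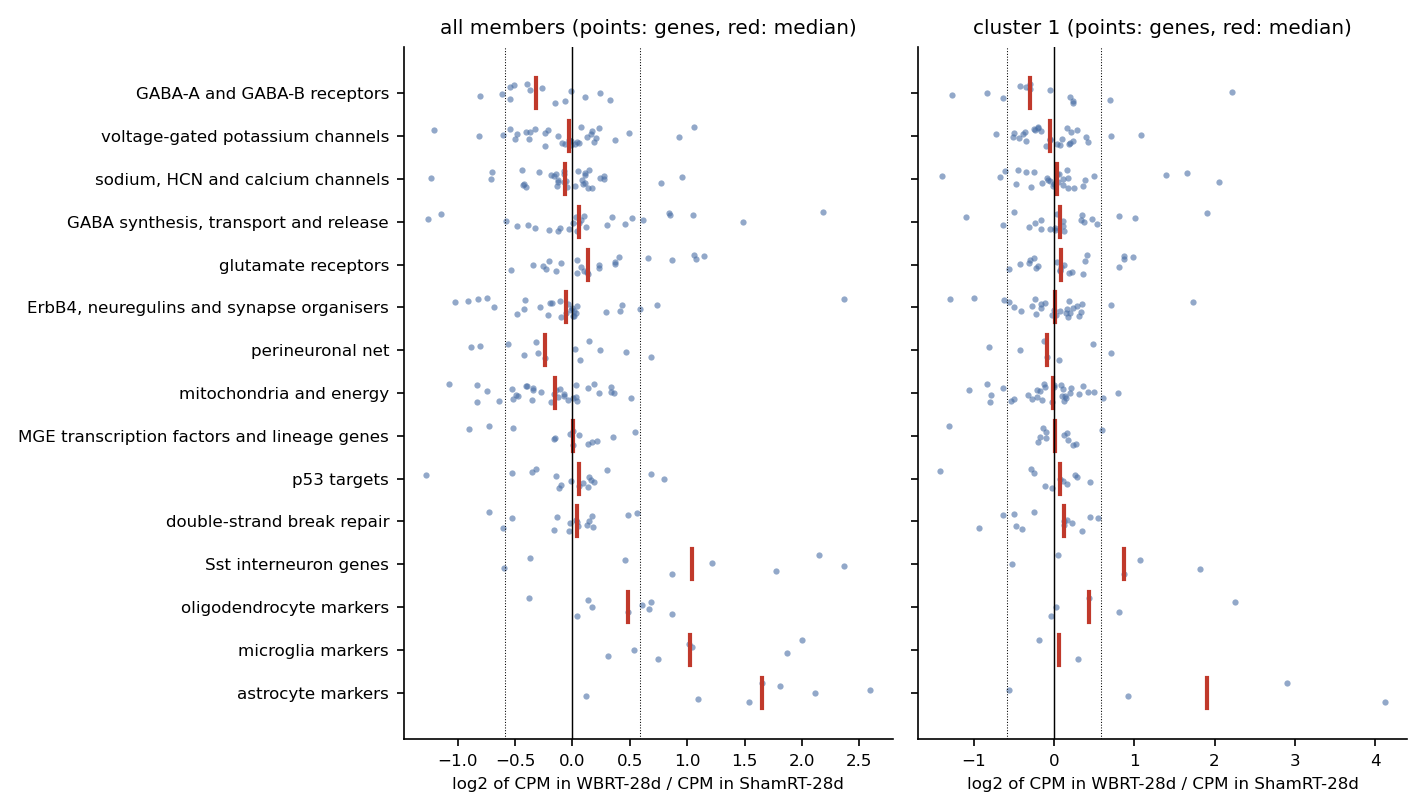
Log2 ratio of CPM in WBRT-28d to ShamRT-28d for the genes of 15 lists (points, at least 20 UMIs) with the list median in red, in all Pvalb-rule nuclei (left) and in cluster 1 (right), with dotted lines at 1.5-fold. GABA receptor genes have medians of -0.32 and -0.30, while the astrocyte markers have medians of 1.65 and 1.91.

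Pvalb-rule nuclei were set against Sst-type nuclei, defined by at least 1 UMI of Gad1 and Gad2 together, at least 2 of Sst, no Vip and at most 1 each of Adarb2 and Slc17a7 (84 in WBRT-28d with a median of 8360 UMIs, 85 in ShamRT-28d with a median of 7414). This comparison stays within a library, and each library gives it once. The Sst-type groups were unlike between the libraries. In them Sst stood at 566 CPM in WBRT-28d and 3346 CPM in ShamRT-28d, and Adarb2 was detected in 21.4% and 2.35% of nuclei. The Pvalb-rule nuclei were unlike in Adarb2 too, with detection in 21.0% in WBRT-28d and 7.75% in ShamRT-28d. Pvalb was detected in 2.38% of Sst-type nuclei in WBRT-28d and 5.88% in ShamRT-28d, but Kcnc2 in 89.3% and 87.1%, so the marker that nearly all Pvalb-rule nuclei carried is shared by both types. Among 5524 genes with at least 50 UMIs in each library, 64 (1.16%) were at least 2-fold higher in Pvalb-rule nuclei in both libraries and 54 (0.978%) at least 2-fold lower. For cluster 1 these counts were 118 (2.92%) and 167 (4.14%) of 4035 genes.

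Of the 8 genes named on the Pvalb side, Cemip, Pde5a, Syt2 and Mypn were also leading genes of cluster 1. Cemip, which codes for a hyaluronan-binding protein, stood in WBRT-28d at 359.2 CPM in Pvalb-rule nuclei against 48.1 CPM in Sst-type nuclei, a ratio of 7.47 (5.33 to 10.8), and in ShamRT-28d at 466.2 against 56.8 CPM, a ratio of 8.21 (5.93 to 11.7). Erbb4 was 2.88-fold higher in WBRT-28d (9153 against 3173 CPM) and 3.73-fold higher in ShamRT-28d (9812 against 2631 CPM). Syt2 was 19.7-fold higher in WBRT-28d, against 3 UMIs in Sst-type nuclei (6.57 to 96.8), and 5.06-fold higher in ShamRT-28d, against 16 UMIs (3.003 to 9.12). Pde5a (8.29 and 12.4), Mypn (9.79 and 6.70), Gpr176 (3.81 and 5.24), Zfp804b (3.36 and 4.87) and Dock4 (2.91 and 3.14) were higher in WBRT-28d and in ShamRT-28d.

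On the Sst side, Npy, a peptide co-transmitter gene, stood at 14.8 CPM in Pvalb-rule nuclei against 97.5 CPM in Sst-type nuclei of WBRT-28d (0.15, 0.090 to 0.25) and at 19.2 against 486.1 CPM in ShamRT-28d (0.039, 0.024 to 0.061). Grin3a stood at 168.5 against 628 CPM in WBRT-28d (0.27) and at 92.3 against 1067 CPM in ShamRT-28d (0.087). Synpr (0.18 and 0.073), Trpc6 (0.24 and 0.12), Shisa6 (0.24 and 0.23), Ptpru (0.21 and 0.088), Cacna2d3 (0.33 and 0.18) and Tox (0.32 and 0.28) were lower in WBRT-28d and in ShamRT-28d. Whether these differences are unlike between the libraries was not tested. In cluster 1, Grin3a stood at 33.2 CPM in WBRT-28d and 18.1 CPM in ShamRT-28d, and Shisa6 at 7.38 and 8.22 CPM, from 4 and 5 UMIs. Both are leading genes of cluster 4, and the same counts formed the clusters, so these low levels restate the clustering.

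**Figure D5:**
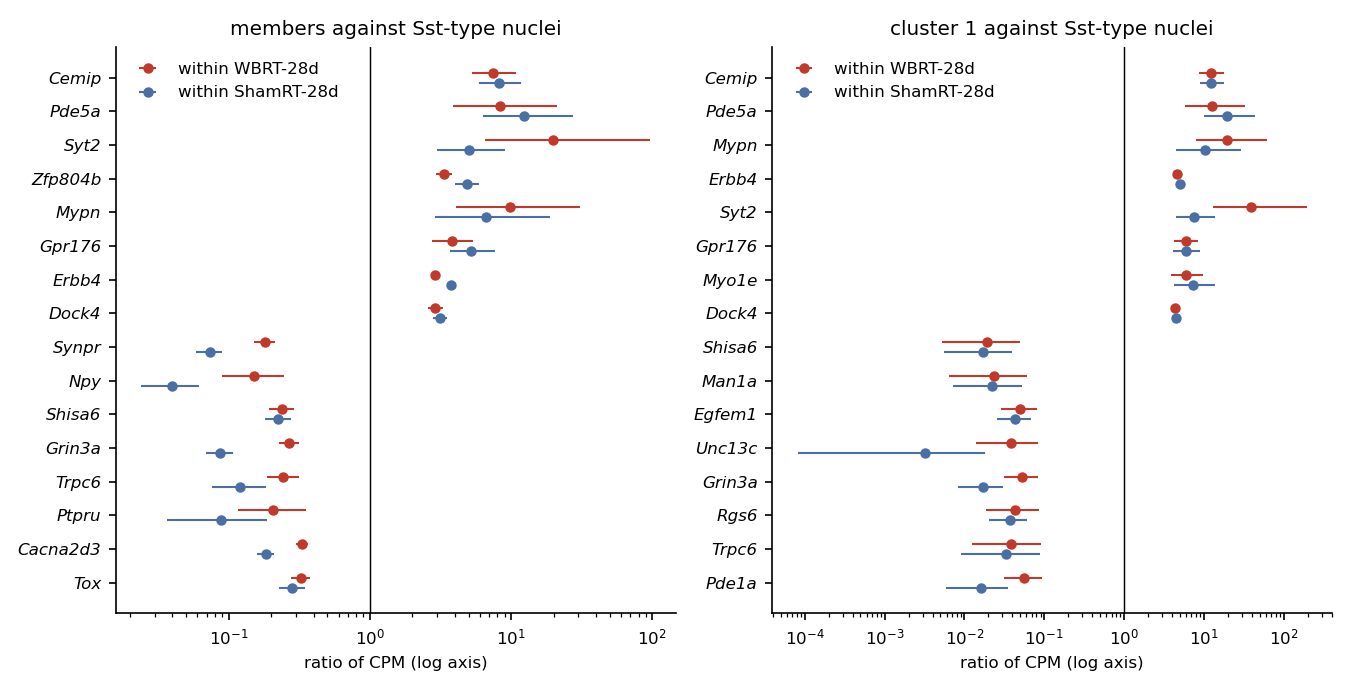
Ratio of CPM in Pvalb-rule nuclei (left) or cluster 1 (right) to CPM in Sst-type nuclei (log axes) within WBRT-28d (red) and ShamRT-28d (blue) for the 8 genes per direction ranked by the bound nearest to 1, with exact 95% intervals for counting error. Cemip, Pde5a, Syt2 and Erbb4 lie right of 1 in both libraries, and Grin3a and Trpc6 left of it, further so in cluster 1.

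Cluster 1 was set against Sst-type nuclei by list, as a description, since the same counts formed the cluster. Of 27 potassium channel genes 7 were at least 2-fold higher in both libraries (Kcna1, Kcnc1 and Kcns3 among them) and 1 lower. Kcnc1 stood at 299 against 85.5 CPM in WBRT-28d, a ratio of 3.50 (2.60 to 4.75), and at 406 against 128 CPM in ShamRT-28d, a ratio of 3.17 (2.48 to 4.09). Kcnh7 was 3.49-fold higher in WBRT-28d and 4.14-fold higher in ShamRT-28d. Of 12 GABA receptor genes 4 were higher, Gabrb2, Gabrd and Gabrg3 among them, and Gabra2 was lower, at 0.14 (0.095 to 0.21) in WBRT-28d and 0.048 (0.019 to 0.10) in ShamRT-28d. Gabrd, the gene of the delta subunit found outside synapses, stood at 97.8 against 24.0 CPM in WBRT-28d (4.07, 2.35 to 7.38) and at 131.6 against 18.9 CPM in ShamRT-28d (6.96, 3.84 to 13.6).

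Of 20 glutamate receptor genes, 6 were lower in cluster 1 than in Sst-type nuclei and 0 higher. The sodium channel gene Scn1a was higher at 2.28 (1.92 to 2.71) in WBRT-28d and 2.10 (1.79 to 2.47) in ShamRT-28d. Ppargc1a (2.12 and 2.47) and its partner Esrrg (4.52 and 3.84), genes of mitochondrial transcription, were higher in each library. Of the MGE genes, 0 of 11 were at least 2-fold higher and 1 was lower, and Sox6 had ratios of 1.31 (1.16 to 1.48) and 0.98 (0.88 to 1.10). Over all Pvalb-rule nuclei, only Kcnc1 and Kcnh7 of 27 potassium channel genes and Gabrd of 14 GABA receptor genes passed 2-fold in both libraries.

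Gad nuclei with at least 2 Adarb2 UMIs, at most 1 UMI each of Sst and Slc17a7, and either fewer than 3 of the 6 markers or a Vip UMI were the other comparison (1359 in WBRT-28d with a median of 5094 UMIs and 556 in ShamRT-28d with a median of 4570.5). They are not only interneurons, since Pdgfra, which marks oligodendrocyte precursors, stood at 92.0 CPM in them in WBRT-28d and at 113.7 CPM in ShamRT-28d, against 6.06 and 9.14 CPM in Pvalb-rule nuclei. Of 9426 genes, 159 (1.69%) were at least 2-fold higher in Pvalb-rule nuclei in both libraries and 373 (3.96%) lower, and for cluster 1 297 (3.29%) and 1078 (11.9%) of 9032. Il1rapl2, a synaptic receptor gene, stood at 1731 against 125.1 CPM in WBRT-28d, a ratio of 13.8 (12.9 to 14.8), and at 1742 against 96.0 CPM in ShamRT-28d, a ratio of 18.2 (16.2 to 20.4). Oprd1, the delta opioid receptor gene, was 11.6-fold and 12.9-fold higher, and Cntnap4, whose product lies at interneuron synapses, 8.99-fold and 9.75-fold. Scn9a and Cacna2d2 were among the 3 of 34 sodium, HCN and calcium channel genes that were at least 2-fold higher in both libraries, and 5 were lower.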

How the data were processed

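Nuclei of 4 mouse brains were profiled in 2 droplet libraries (10x Chromium, 3′ chemistry). Per the file headers and the study's methods, the authors made the deposited matrices of UMI counts with Cell Ranger 5.0.0 and a mm10 reference in which introns were counted, and R 3.5.3 and Seurat 3.0 appear in the submitters' processing notes. The counts are raw, hold no map from nuclei to mice, and came with no cell type annotation. The members and gene lists were chosen with earlier results of these data known.

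From these counts, 15668 WBRT-28d and 11037 ShamRT-28d nuclei passed the filters, 326 ShamRT-28d barcodes had under 500 genes, and 318 and 107 barcodes exceeded 5% mitochondrial UMIs. UMIs were summed over nuclei and scaled to 1000000 (CPM). Ratios carry exact conditional binomial intervals, and shares Clopper-Pearson intervals, both at 95% and for counting error alone. With 1 library per condition no test between conditions exists. Doublets were called per library with Scrublet at an expected 0.8% per 1000 barcodes and kept. Members were clustered with scanpy 1.11.5 (igraph 0.11.9) on 1500 variable genes, 15 components and 15 neighbors, by Leiden at resolution 0.5. Intervals were computed with scipy 1.17.1 in python 3.11.15 (pandas 2.3.3, numpy 2.4.6), and figures were drawn with matplotlib 3.10.9. The ratio step was checked on simulated data.

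Named genes exclude the rule genes, numbered predicted genes and mitochondrial genes. Between conditions, the 10 genes per direction with at least 100 UMIs and a CPM not under that of all kept nuclei in 1 library were ranked by the interval bound nearest to 1, and between types the 8 genes per direction with at least 50 UMIs per library. From lists (at least 20 UMIs), the most abundant genes and those past 1.5-fold were named, plus genes the study names. Genes named within cluster 1 alone, and the single-gene values given beside lists that fit no part of this rule, were added after their values were seen. Some genes that the rule would name are counted with their lists and not reported here by name. Alternatives were the scaling, UMI minimum, marker number, gene minimum, Sst limit, doublet removal, thinning to 2000 UMIs, nuclei with an MGE factor, and the mean of per-nucleus CPM. After seeing the data, cluster 1 alone, cluster 3 left out, other Leiden resolutions, and the makeup without doublets were added.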

Additional observations from a re-analysis of the deposited data

Results flagged for a closer look

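In 4 of the 20 genes named for all Pvalb-rule nuclei, the ratio of WBRT-28d to ShamRT-28d lay on opposite sides of 1 in Pvalb-rule nuclei and in cluster 1 or all other kept nuclei, with both intervals excluding 1. These differences were not tested, since each condition is 1 library. Col25a1 had a ratio of 2.67 (2.08 to 3.45) in Pvalb-rule nuclei and of 0.87 (0.84 to 0.90) in all other kept nuclei. Trpc6 had a ratio of 2.47 (1.58 to 3.98) in Pvalb-rule nuclei and of 0.59 (0.56 to 0.62) in all other kept nuclei. Pde5a had a ratio of 0.479 (0.375 to 0.609) in Pvalb-rule nuclei and of 1.18 (1.07 to 1.31) in all other kept nuclei. In the other nuclei with a Gad1 or Gad2 UMI the ratio of Pde5a was 0.69 (0.58 to 0.81), on the same side as in Pvalb-rule nuclei. Ntng1 had a ratio of 0.492 (0.408 to 0.593) over all Pvalb-rule nuclei and of 3.33 (2.15 to 5.31) in cluster 1, where 1 nucleus held 21.7% of its UMIs in WBRT-28d and 1 held 32.1% in ShamRT-28d.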

How the results depend on the processing

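No paired analysis was possible because each condition is 1 library. The share of kept nuclei, 1.155% in WBRT-28d and 1.169% in ShamRT-28d, became 0.5999% and 0.7701% with at least 4 markers, 0.8345% and 0.8927% after thinning, 1.467% and 1.684% with at least 1000 genes, and 0.5106% and 0.7067% for cluster 1 alone. The counts of genes past 1.5-fold, 258 higher and 200 lower, became 553 and 502 at 50 UMIs, 113 and 77 at 200 UMIs, and 100 and 83 in cluster 1, where 37 list genes were higher in place of 72. Past 2-fold against Sst-type nuclei, 64 genes were higher and 54 lower, with 118 and 167 for cluster 1, 34 lower at 100 UMIs and 108 lower with at least 4 markers. Against Adarb2-type nuclei, 159 were higher and 373 lower, with 297 and 1078 for cluster 1 and 625 lower with at least 4 markers. In cluster 1 the log2 ratio of Ntng1 was 1.73 (-1.02 in all members), that of Fstl5 0.44 (-1.15), and the median of caudal and lateral eminence genes -0.43 (0.86). The median of chandelier cell genes was -0.050 with at least 4 markers (0.70). The cause of these shifts was not tested. At Leiden resolution 1.0 the Pvalb-led cluster held 8.84% of WBRT-28d and 23.26% of ShamRT-28d members, and without Scrublet doublets 54.17% and 65% (44.2% and 60.5% with them). Over the alternatives run, 121 values of named genes stayed within their counting interval, 17 moved and 2 changed direction. Of list medians 126 stayed, 25 moved and 2 changed direction, where a change of direction was counted only for main medians of at least 1.5-fold. Smaller medians also changed sign and were not counted so. Examples are immediate early genes (0.319, and -0.062 with cluster 3 left out) and neuropeptides (0.194, and -0.497 with at least 4 markers). Genes with few UMIs, such as Cdkn1a, are limited by depth, and pooling hides the spread between mice.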
